A study of Mus musculus with 18 samples.

Results

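Ucn3, Nnat and Dio1 are 3 of the 17207 mouse genes measured here, chosen by their large fall in mRNA-seq level after 18 h of treatment with CPA. CPA inhibits SERCA, the calcium pump that fills the endoplasmic reticulum (ER), and its prolonged use places cells under chronic ER stress. The cells were MIN6, a line derived from a mouse insulinoma and used as a model of the pancreatic β-cell. Being a tumour line, they stand in for neither a whole islet nor an animal. In each of 3 experiments a control culture received the vehicle DMSO for 18 h, another received 200 µM CPA for 1 h (CPA1, the acute phase), and another received 200 µM CPA for 18 h (CPA18, the chronic phase). The 18 h vehicle cultures served as the control for both time points. From every culture one library of total mRNA (mRNA-seq) and one of ribosome-protected fragments (Ribo-seq) was made, which gives 18 libraries and 3 for each treatment and assay. The mRNA-seq comparison of CPA18 with control chose the genes, so it is described below without a test, as is anything else that contains the CPA18 mRNA-seq values. The Ribo-seq values took no part in the choice and were tested, although those libraries come from the same cultures.

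The 3 genes work in separate pathways. Ucn3 encodes urocortin 3, a peptide hormone of the corticotropin-releasing factor (CRF) family that mouse β-cells store and release together with insulin. Urocortin 3 acts on the receptor Crhr2 of neighbouring δ-cells, which respond by secreting somatostatin, and the gene is widely used as a marker of mature β-cells in mice. Nnat encodes neuronatin, a small hydrophobic protein of the ER membrane. It is an imprinted gene, transcribed from the paternal allele, and in β-cells neuronatin is known to assist the signal peptidase that removes the signal peptide of preproinsulin, while its resemblance to phospholamban has also linked it to SERCA. Dio1 encodes type 1 iodothyronine deiodinase, an enzyme best known from liver, kidney and thyroid, which converts the prohormone thyroxine into the active thyroid hormone triiodothyronine. Its active site holds selenocysteine, an amino acid that ribosomes insert at a UGA codon, otherwise a stop signal, when a stem-loop follows further downstream in the mRNA.

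On the GRCm38 build, Ucn3 lies on the minus strand at chr13:3940688-3945349 and has 2 exons, 1 of which holds the whole coding sequence of 495 nt. Dio1 lies on the minus strand at chr4:107291465-107307168, and its 774 nt of coding sequence spread over 4 exons. The selenocysteine codon is shown because a ribosome must read through it to complete the enzyme: it is the TGA in capitals, codon 126 of 258 counted from 1 at the start codon, at chr4:107297700-107297702 within an exon, and the last codon is TAG.
Dio1, minus strand, chr4:107297685-107297714: ggcagttgcaccTGAccttcatttcttctc

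Nnat lies on the plus strand at chr2:157560078-157562525. It is a gene within a gene, since it sits wholly inside an intron of Blcap (chr2:157558328-157566247) on the opposite strand, so the exons of the 2 genes do not overlap. The transcript table lists 5 Nnat transcripts, with coding sequences of 390, 378, 246, 192 and 165 nt, and the 246 nt and 165 nt forms are those known as α and β. They differ in the exon between the first and the last, and that stretch is shown because only reads on it or across its junctions can tell the forms apart. The α form holds all 81 bases of the first sequence below, the 378 nt form its first 76, the 192 nt form only the 27 in capitals, and the β form none. The 390 nt form has instead the 88 bases of the second sequence.
Nnat middle exon, plus strand, chr2:157561213-157561293: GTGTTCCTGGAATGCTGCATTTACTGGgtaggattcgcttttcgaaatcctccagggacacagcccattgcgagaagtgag
Nnat exon of the 390 nt form, plus strand, chr2:157560448-157560535: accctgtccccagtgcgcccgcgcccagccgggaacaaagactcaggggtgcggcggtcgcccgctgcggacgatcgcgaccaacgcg

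The 250 bases upstream of each transcription start are given because the mRNA of the 3 genes fell together. They come from the RefSeq promoter table for GRCm38.p6, in which all 3 genes were found. Both strands were searched for 9 motifs: the MARE core TGCTGA, the A-box core TAATTA, the E-boxes CAGCTG and CATCTG, the CRE TGACGTCA, its shorter form TGACG (which every full CRE contains), the ER stress response element ERSE, the hormone response core AGGTCA and the TATA box TATAAA. Capitals mark the matches.
Ucn3, minus strand, chr13:3945350-3945599: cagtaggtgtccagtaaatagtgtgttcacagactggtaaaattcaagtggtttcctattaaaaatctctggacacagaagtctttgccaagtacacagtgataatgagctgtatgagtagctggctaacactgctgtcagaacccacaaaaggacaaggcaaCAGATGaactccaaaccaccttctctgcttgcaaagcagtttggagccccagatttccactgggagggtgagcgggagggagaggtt
Nnat, plus strand, chr2:157559828-157560077: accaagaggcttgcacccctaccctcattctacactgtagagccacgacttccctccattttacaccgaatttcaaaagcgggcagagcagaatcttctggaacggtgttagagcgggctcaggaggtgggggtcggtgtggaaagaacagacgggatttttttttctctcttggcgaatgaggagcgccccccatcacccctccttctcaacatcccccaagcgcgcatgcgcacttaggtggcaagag
Dio1, minus strand, chr4:107307169-107307418: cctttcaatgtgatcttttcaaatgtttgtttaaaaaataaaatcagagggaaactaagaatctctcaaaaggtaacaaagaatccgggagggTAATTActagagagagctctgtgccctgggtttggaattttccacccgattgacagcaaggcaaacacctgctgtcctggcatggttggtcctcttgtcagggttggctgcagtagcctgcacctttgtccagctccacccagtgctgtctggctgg
Ucn3 held 1 of the 9 motifs, an E-box read as CATCTG on the other strand, 87 bases before the start, and 14.4% of the 32851 promoters in the table held that motif. Dio1 also held 1, the A-box core at 157 bases before the start, which 4.84% of promoters held. In the Nnat window none of the 9 was found. The Nnat window was richer in G and C (54.8%) than those of Ucn3 (46.4%) and Dio1 (46.8%), and it held 12 CpG dinucleotides against 1 and 2, beside medians of 52.4% and 6 over all promoters. No motif match was shared by the 3 windows.

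Depth differed between the libraries. The summed counts ran from 520960 to 4755030 in mRNA-seq and from 168129 to 1083297 in Ribo-seq, where the median total stood at 929649 in control, 470602 in CPA1 and 203108 in CPA18. All 7 β-cell marker genes examined had reads in every treatment, and their summed mRNA level ran from 154505 to 457283 RPKM (reads scaled to transcript length and to the library total) in control, 144690 to 401090 in CPA1 and 42547 to 131376 in CPA18. Markers of exocrine and duct cells summed to at most 2.11 RPKM and those of stroma and blood to at most 4.29 RPKM in any library. Of 6 exocrine and duct markers 4 had a row in the table, and of these Amy2a5, Cela2a and Ctrb1 had 0 reads in control and CPA1 and 1, 7 and 2 mRNA-seq reads in CPA18, while in the CPA18 Ribo-seq libraries all 4 were at 0. Their part in the results was not tested. Markers of other islet cells summed to between 23.8 and 242 RPKM. Library totals served as the scale, and on that scale the median gene stood above 0 in CPA18 against control, at a log2 fold change of 0.26 in mRNA-seq and 0.34 in Ribo-seq. Scaling by TMM moved these medians by -0.27 and -0.36, which left them at -0.01 and -0.02. With total counts 1975 genes were called higher and 782 lower in mRNA-seq, against 1562 and 1385 with TMM, 964 and 1184 with DESeq2, and 1647 and 1334 when Ins1, Ins2 and Lars2 were left out of the totals. The Ribo-seq split was 1779 higher and 544 lower with total counts, 857 and 1051 with TMM, 494 and 627 with DESeq2, and 1235 and 755 without those 3 genes in the totals. The control libraries of experiment 2 carry a title and a description that name opposite assays. They were placed by title, and the results were also computed without them.

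Ucn3 mRNA fell to a small fraction of its control level after 18 h. It stood at 23.4, 39.1 and 29.5 RPKM in the control libraries of experiments 1, 2 and 3, at 16.5, 24.6 and 31.1 RPKM in CPA1, and at 1.63, 2.13 and 1.88 RPKM in CPA18. The first 2 groups overlapped, and every CPA18 library lay far below all of them. The means were 30.7 ± 7.92, 24.1 ± 7.31 and 1.88 ± 0.250 RPKM (SD, n = 3), and the fall from control to CPA18 averaged 16-fold over the experiments on the log scale. Per experiment, CPA18 kept 6.99%, 5.46% and 6.38% of the control level. Those shares rest on few reads, 3, 15 and 5 in CPA18 against 18, 95 and 105 in control, and for experiment 1 the 95% interval ran from 1.32% to 24.0%. Such intervals cover counting error only. The fitted log2 fold change was -4.00 (SE 0.39), or -4.26 relative to the median gene. From rank 1898 by mean RPKM among all 17207 genes, Ucn3 dropped to rank 8319. In bulk RNA, fewer cells making a transcript and less of it per cell cannot be told apart, which holds for every value given here.

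After 1 h, the difference of Ucn3 mRNA from control did not pass the test. The log2 fold change was -0.35 (SE 0.31, 95% interval -0.95 to 0.26), and edgeR's quasi-likelihood test with Benjamini-Hochberg adjustment over 12300 genes gave an adjusted p of 0.999. At that time point 0.171% of genes were called in mRNA-seq. The interval leaves room for a fall of close to 1 on the log2 scale, so a moderate early loss would not have been detected. These comparisons share the control libraries with the one that chose the gene.

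Ribosome-protected fragments of Ucn3 fell as well, by less. They stood at 28.8, 37.8 and 26.2 RPKM in control, at 33.9, 27.6 and 30.2 RPKM in CPA1, and at 16.1, 9.99 and 4.89 RPKM in CPA18. Control and CPA1 were interleaved, while all 3 CPA18 libraries lay below both. The means were 31.0 ± 6.09, 30.6 ± 3.18 and 10.3 ± 5.62 RPKM (SD, n = 3), a fall that averaged 3.31-fold. Against control the log2 fold change was -1.81 (SE 0.45, interval -2.70 to -0.92) with an adjusted p of 0.000725 in the edgeR fit. Against CPA1 it was again -1.81 (SE 0.48), with an adjusted p of 0.00190. Between CPA1 and control it was -0.0034 (SE 0.31, interval -0.61 to 0.61), with an adjusted p of 0.999. Only 4, 3 and 4 reads lay behind the CPA18 values, against 35, 52 and 42 in control. CPA18 therefore kept 55.8% (interval 14.4 to 156%), 26.4% (5.27 to 81.6%) and 18.6% (4.85 to 51.3%) of control. Experiment 3 decided the call: without it the log2 fold change was -1.38 against control and -1.27 against CPA1, with adjusted p of 0.0704 and 0.154.

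**Figure D1:**
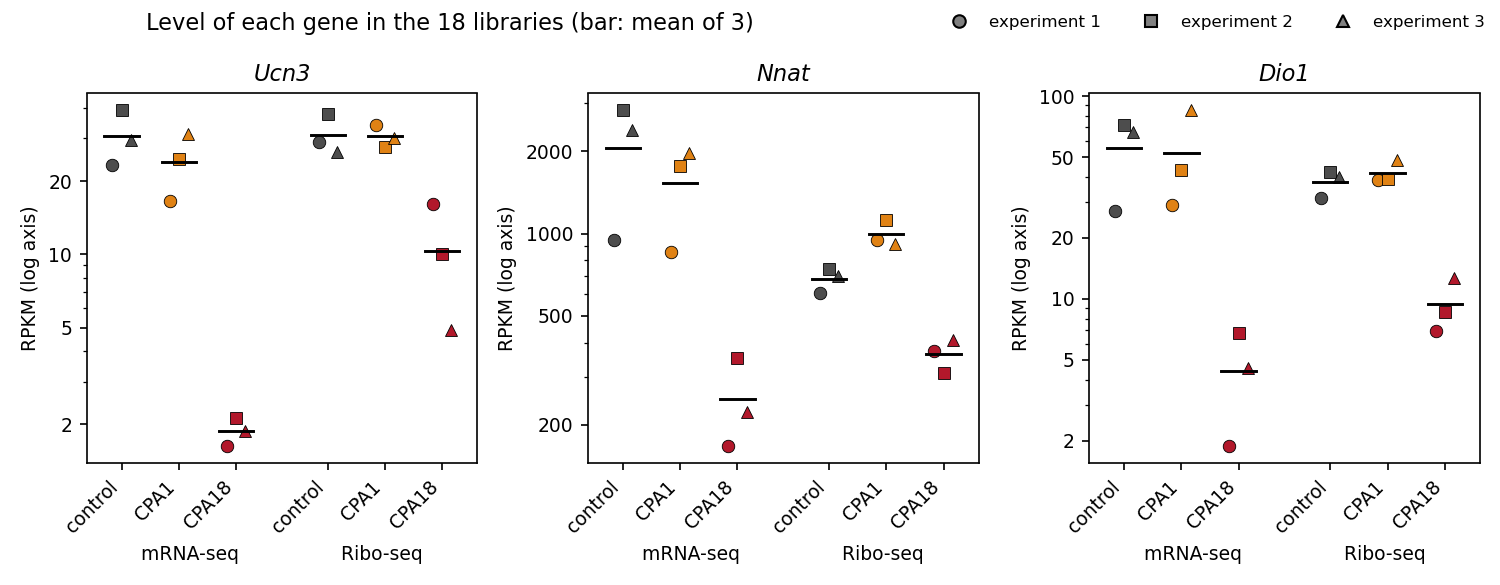
Level of Ucn3, Nnat and Dio1 in each of the 18 libraries, in RPKM on a log axis, with mRNA-seq on the left and Ribo-seq on the right of each panel. Points are the 3 experiments and bars their means. In both assays the 3 CPA18 points of each gene lie below every control and CPA1 point, and the drop is shorter in Ribo-seq.

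The other genes of the CRF family and its somatostatin arm were mostly at the edge of detection. Of the 6 other CRF family genes 1 passed the filter of 18 reads over the 9 libraries of an assay, Crhr1, the type 1 CRF receptor. Its mRNA fell by 0.84 on the log2 scale (SE 0.31, adjusted p = 0.0486, and 0.41 when the experiment was not a block), and its Ribo-seq value was -0.94 (adjusted p = 0.127). Crhr2, the receptor for urocortin 3, had 1 mRNA-seq and 0 Ribo-seq reads in all, and the ligands Crh, Ucn and Ucn2 had 7, 1 and 12 mRNA-seq reads. Of the somatostatin arm, 4 of 6 genes passed in mRNA-seq. The receptor genes Sstr2 (3.53, SE 1.0, adjusted p = 0.0171) and Sstr3 (1.92, SE 0.32, adjusted p = 9.56e-05) rose, Sstr5 fell (-1.50, SE 0.54, adjusted p = 0.0455), and the hormone gene Sst stood at -1.49 (adjusted p = 0.217). Sstr2 had 38 reads in CPA18 and 2 in control, a ratio of 11.1 whose counting interval ran from 2.88 to 95.4. None of these 4 mRNA calls, Crhr1 included, was made without the block. In mRNA-seq 16.1% of all genes were called higher and 6.36% lower, and in Ribo-seq 17.6% and 5.38%. Sstr3 also rose in Ribo-seq (1.34, SE 0.33, adjusted p = 0.000692, and 0.0771 with DESeq2), and Sstr5 there stood at -1.27 (adjusted p = 0.434).

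Other genes of the mature β-cell fell alongside Ucn3. Of 24 such genes, all of which passed the filter, 19 fell in mRNA and none rose, with a median log2 fold change of -1.59 against 0.26 over all genes. Without the experiment as a block 2 of the 24 were called. In Ribo-seq 17 of the 24 fell and none rose, with a median of -1.39 against 0.34. The glucose transporter gene Slc2a2 fell by 2.99 (SE 0.29, adjusted p = 1.46e-22) in Ribo-seq, the incretin receptor gene Glp1r by 2.45 (SE 0.24, adjusted p = 4.53e-22) and the insulin gene Ins1 by 1.96 (SE 0.14, adjusted p = 1.95e-41). Prlr, the prolactin receptor gene, had 12, 6 and 10 Ribo-seq reads in control and 0 in CPA18, which is at least 3.05-fold lower when 3 reads over the group are taken as the floor. The Ucn3 value of -1.81 in Ribo-seq thus lay within the range of these genes. Its mRNA value of -4.00 lay below all 24, but that fall chose the gene, so this position is described and not tested.

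Genes associated with immature β-cells were called in both directions with total counts. Of 17, 10 passed the filter in mRNA-seq, where 4 rose and 3 fell, and 7 passed in Ribo-seq, where 1 rose and 2 fell. None of the 7 mRNA calls was made without the block. The monocarboxylate transporter gene Slc16a1 rose in Ribo-seq with total counts (1.34, SE 0.40, adjusted p = 0.00671, but 0.0624 with TMM and 0.173 with DESeq2), while the hormone gene Gast (-2.51, SE 0.74, adjusted p = 0.00539) and the neuropeptide gene Npy (-1.20, SE 0.15, adjusted p = 4.57e-13) fell. For Gast 3 CPA18 reads stood against 58, which is 15.8% of control with a counting interval of 3.18 to 48.7%. The list medians were -0.37 in mRNA-seq and -0.58 in Ribo-seq, against 0.26 and 0.34 over all genes. Called higher over all genes were 16.1% in mRNA-seq and 17.6% in Ribo-seq, and called lower 6.36% and 5.38%. The split within the list depended on the scaling. In mRNA-seq 3 rose and 3 fell with TMM, and 1 rose and 3 fell with DESeq2. In Ribo-seq 0 rose and 2 fell with either of these.

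Nnat was among the most abundant transcripts of these cells, and it lost most of that level. Its mRNA stood at 950.3, 2819 and 2394 RPKM in control, at 859, 1759 and 1967 RPKM in CPA1, and at 168, 352 and 224 RPKM in CPA18. Experiment 1 was the lowest of its group in each treatment, and control and CPA1 overlapped while CPA18 lay below both. The means were 2055 ± 980, 1529 ± 589 and 248 ± 94.6 RPKM (SD, n = 3), and the fall averaged 7.85-fold over the experiments. CPA18 kept 17.7%, 12.5% and 9.33% of control in the 3 experiments. By mean RPKM Nnat fell from rank 11 to rank 344, still above most genes. The fitted log2 fold change was -2.97 (SE 0.26) against control and -2.60 (SE 0.26) against CPA1. For CPA1 against control it was -0.37 (SE 0.24, interval -0.84 to 0.10), with an adjusted p of 0.999.

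As a share of Ribo-seq reads Nnat was higher at 1 h, in a call that was not stable, and lower at 18 h. Each library is scaled to its own total, so no Ribo-seq value given here measures an absolute number of ribosomes. The study reported that CPA inhibited protein synthesis in these cells, with partial recovery later. The control libraries held 608, 741 and 702 RPKM, the CPA1 libraries 946, 1121 and 916 RPKM, and the CPA18 libraries 372, 309 and 410.3 RPKM. All 3 CPA1 values lay above all control values and all CPA18 values below them, so no groups overlapped. Values in CPA1 above every control value occurred in 9.62% of genes. The means were 684 ± 68.3, 994 ± 111 and 364 ± 51.3 RPKM (SD, n = 3). At 1 h the log2 fold change was 0.54 (SE 0.16, interval 0.23 to 0.85) with an adjusted p of 0.0178, beside 4.37% of all genes called and 2.47% called higher (250 higher and 192 lower, or 225 and 275 with TMM). That call was not stable, since it held in 5 of 14 alternative analyses, with adjusted p from 0.00398 to 0.257. It was lost without the block (adjusted p = 0.142), with TMM scaling (0.0768), and without experiment 1 (0.255) or experiment 2 (0.257). At 18 h the log2 fold change was -0.89 (SE 0.17, interval -1.23 to -0.56) with an adjusted p of 3.06e-06. From CPA1 to CPA18 it was -1.43 (SE 0.17) with an adjusted p of 4.55e-15. Both 18 h calls held in 14 of 14 alternatives, with values between -1.26 and -0.74 against control.

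The 5 Nnat transcripts took nearly equal shares of its mRNA reads. Pooled over 9 libraries the shares were 19.2%, 20.5%, 21.6%, 19.4% and 19.2% for the 390, 378, 246, 192 and 165 nt forms. In Ribo-seq they were 12.4%, 25.0%, 26.7%, 17.7% and 18.2%. Only for the 390 nt form did the ranges over libraries not overlap, at 17.4 to 21.5% of mRNA-seq reads and 10.9 to 16.9% of Ribo-seq reads. Its mRNA share came to 19.3% in control, 19.2% in CPA1 and 18.9% in CPA18, and its Ribo-seq share 12%, 12.6% and 13.6% when pooled. By library the Ribo-seq share was 10.9%, 12.1% and 12.6% in control and 15.6%, 16.9% and 12.2% in CPA18, so that 2 of 3 CPA18 libraries, with 12 and 13 reads of this form, lay above every control. Reads on shared exons cannot be assigned to a form, and how they were divided is not given in the sources used here, so these shares describe the table and not measured isoform levels.

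**Figure D2:**
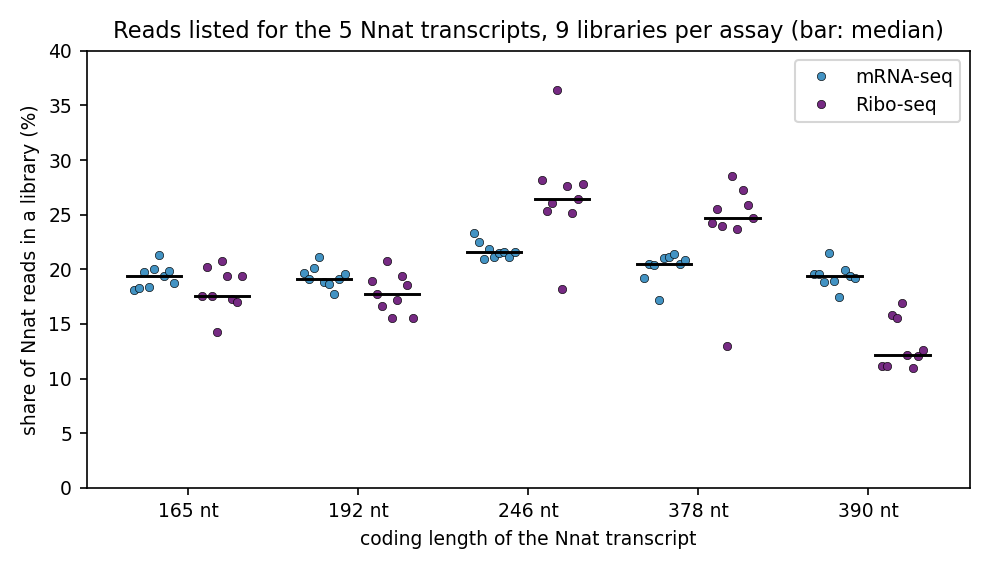
Share of the Nnat reads of a library, in percent, listed for each of its 5 transcripts, which are named by coding length in nt. Points are the 9 mRNA-seq and 9 Ribo-seq libraries and bars are medians, and the 390 nt form is the one whose 2 sets of points are apart.

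Blcap, whose intron contains Nnat, had values near or above 0. Its mRNA stood at a log2 fold change of 0.14 (SE 0.27, adjusted p = 0.765) at 18 h, a value that turned to -0.11 with TMM and -0.18 with DESeq2. Its Ribo-seq value was 0.86 (SE 0.32, adjusted p = 0.0352), and with TMM 0.50 (adjusted p = 0.283). Among 53 other imprinted genes, 35 passed the filter in mRNA-seq, where 9 fell and 1 rose, and 2 were called without the block. In Ribo-seq 34 passed, of which 6 fell and 5 rose with total counts, and 10 fell and 2 rose with TMM. Total counts called 6.36% of all genes lower and 16.1% higher for mRNA, and 5.38% lower and 17.6% higher for ribosome-protected fragments. The imprinted genes had an mRNA median of -0.33, beside 0.26 over all genes, and a Ribo-seq median of -0.17, beside 0.34. With Zim1, which had no CPA18 read, set at its bound, the Ribo-seq median of the imprinted genes became -0.05. Those that fell most in Ribo-seq were Th and Ddc, which encode enzymes of dopamine synthesis (-2.20, SE 0.19, adjusted p = 2.27e-27, and -1.76, SE 0.24, adjusted p = 3.88e-11), the zinc finger gene Peg3 (-1.65, SE 0.24, adjusted p = 2.77e-10) and the potassium channel gene Kcnk9 (-1.58, SE 0.26, adjusted p = 3.99e-08). H13, which encodes signal peptide peptidase, rose there (1.20, SE 0.20, adjusted p = 1.16e-07), and Ndn rose with total counts (1.64, SE 0.62, adjusted p = 0.0405) but was not called with TMM (0.129) or without Ins1, Ins2 and Lars2 in the totals (0.0804).

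The signal peptidase, the complex that neuronatin assists, moved in the opposite direction to Nnat. Of its 5 subunit genes 4 rose in mRNA-seq and 4 in Ribo-seq, with medians of 1.09 and 0.86 on the log2 scale. Over all genes 16.1% and 17.6% were called higher, and the medians were 0.26 and 0.34. In mRNA-seq the values were 0.75 for Spcs1 (adjusted p = 0.0353), 1.09 for Spcs2 (0.00352), 0.38 for Spcs3 (0.364), 1.54 for the catalytic subunit gene Sec11a (0.000146) and 1.25 for Sec11c (0.00473). In Ribo-seq they were 0.54 (adjusted p = 0.0487), 0.88 (0.000690), 0.86 (0.00105), 1.01 (8.87e-05) and 0.68 (0.0700). None of the mRNA calls was made without the block, and in Ribo-seq 1 of the 5, Sec11a, was called with TMM scaling and none with DESeq2, where its adjusted p was 0.0885.

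The SERCA genes, the target of CPA, fell. Atp2a1, Atp2a2 and Atp2a3 passed the filter, and in mRNA-seq they fell by 1.89 (SE 0.50, adjusted p = 0.00806), 0.74 (SE 0.24, adjusted p = 0.0245) and 0.93 (SE 0.24, adjusted p = 0.00733), calls that were not made without the block. In Ribo-seq Atp2a2 fell by 0.86 (SE 0.15, adjusted p = 1.88e-07) and Atp2a3 by 1.03 (SE 0.17, adjusted p = 4.04e-08), and Atp2a1 stood at -1.44 (adjusted p = 0.361). The mRNA fall of Atp2a1 rests on control libraries that differed widely, at 7.66 ± 8.49 RPKM against 1.82 ± 1.70 RPKM in CPA18 (SD, n = 3). The small regulators Pln and Sln were under the filter. Called lower over all genes were 6.36% in mRNA-seq and 5.38% in Ribo-seq.

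Dio1 mRNA fell about as steeply as that of Ucn3. It stood at 27, 72.3 and 66.7 RPKM in control, at 28.9, 43.4 and 85.1 RPKM in CPA1, and at 1.89, 6.78 and 4.56 RPKM in CPA18. Experiment 1 was again the lowest of each group, and the CPA18 libraries lay below all others. The means were 55.3 ± 24.7, 52.5 ± 29.2 and 4.41 ± 2.45 RPKM (SD, n = 3). The fall averaged 13.1-fold, and CPA18 kept 6.99%, 9.37% and 6.84% of control. In experiment 1 this share rests on 4 reads against 24, with an interval of 1.76 to 20.4%. Dio1 went from rank 1161 to rank 6288 by mean RPKM. The fitted log2 fold change was -3.58 (SE 0.35) against control and -3.51 (SE 0.35) against CPA1. After 1 h it was -0.06 (SE 0.30, interval -0.66 to 0.53, adjusted p = 0.999), and its sign changed with the scaling, being 0.08 with TMM.

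Ribo-seq reads of Dio1 fell too. They gave 31.4, 42.2 and 40 RPKM in control, 38.4, 38.8 and 48.5 RPKM in CPA1, and 6.97, 8.65 and 12.7 RPKM in CPA18. Control and CPA1 overlapped and CPA18 lay below both. The means were 37.9 ± 5.72, 41.9 ± 5.76 and 9.44 ± 2.94 RPKM (SD, n = 3). At 18 h the log2 fold change was -1.89 (SE 0.39, interval -2.66 to -1.13) with an adjusted p of 2.49e-05 against control, and -2.05 (SE 0.41) with an adjusted p of 1.00e-05 against CPA1. Both calls held in 14 of 14 alternatives. CPA18 kept 22.2% (interval 2.61 to 85.1%, from 2 reads), 20.5% (4.12 to 62.5%, from 3 reads) and 31.7% (15.7 to 58.8%, from 12 reads) of control. At 1 h the log2 fold change was 0.15 (SE 0.27, interval -0.38 to 0.68, adjusted p = 0.870).

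All 3 genes were thus called lower in Ribo-seq at 18 h against control, where 23% of the 10107 genes tested were called and 5.38% were called lower. They were also called lower against CPA1, where 17.1% of genes were called and 4.71% called lower (1249 higher and 476 lower, or 697 and 836 with TMM). Non-overlapping lower values in CPA18, which all 3 genes had, occurred in 9.67% of genes against control and 8.29% against CPA1 in Ribo-seq. In mRNA-seq the corresponding 5.59% and 5.28% have no bearing, because those values chose the genes. For the same reason the mRNA background of 22.4% of 12300 genes called, with 6.36% called lower, is given only as a description.

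Other genes of thyroid hormone action were called in both directions. Of 23, 13 passed the filter in mRNA-seq, where 1 rose and 3 fell, none of them without the block. In Ribo-seq 11 passed, of which 1 rose and 1 fell. Over all genes 16.1% were called higher and 6.36% lower in mRNA-seq, and 17.6% and 5.38% in Ribo-seq. Ttr, which encodes the thyroxine carrier transthyretin, fell by 2.48 (SE 0.16, adjusted p = 3.51e-49) in Ribo-seq and by 2.74 (SE 0.28, adjusted p = 1.14e-07) in mRNA-seq. Rxrb, a retinoid X receptor that pairs with thyroid hormone receptors, rose by 1.17 (SE 0.33, adjusted p = 0.00278) in Ribo-seq with total counts, a call not made with TMM. The other deiodinase genes, Dio2 and Dio3, were under the filter, with 15 and 5 mRNA-seq reads in all 9 libraries.

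Among the other selenoproteins calls went in both directions. Of 23, 19 passed the filter in mRNA-seq, where 5 rose and 2 fell, none of them without the block. In Ribo-seq 18 passed, of which 5 rose and 1 fell. Called lower over all genes were 6.36% in mRNA-seq and 5.38% in Ribo-seq, and called higher 16.1% and 17.6%. The largest rises in Ribo-seq were those of the ER proteins Selenok (2.35, SE 0.24, adjusted p = 8.22e-20), Selenos (1.84, SE 0.23, adjusted p = 2.35e-13) and Selenom (1.59, SE 0.24, adjusted p = 3.18e-09), and of Gpx4, a peroxidase that protects lipids (1.34, SE 0.20, adjusted p = 1.28e-09). Selenon fell by 0.75 (SE 0.26, adjusted p = 0.0229). Of 6 genes for selenocysteine insertion, 4 passed the filter in Ribo-seq, and Eefsec, the elongation factor dedicated to selenocysteine, rose by 1.87 (SE 0.55, adjusted p = 0.00495, and 0.0888 with DESeq2). All 6 passed in mRNA-seq, with adjusted p from 0.174 to 0.744.

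Ribosome occupancy, the ratio of Ribo-seq to mRNA-seq RPKM in the same culture, was higher at 18 h for each gene, and it contains the mRNA values that chose them. The Ucn3 values were 1.23, 0.968 and 0.889 in control, 2.05, 1.12 and 0.971 in CPA1, and 9.86, 4.68 and 2.60 in CPA18. For Nnat the control values were 0.640, 0.263 and 0.293, those of CPA1 1.10, 0.637 and 0.465, and those of CPA18 2.22, 0.876 and 1.83. For Dio1 they were 1.16, 0.584 and 0.600 in control, 1.33, 0.895 and 0.571 in CPA1, and 3.70, 1.28 and 2.78 in CPA18. In each gene the CPA18 values lay above all control values, which was true of 3.5% of the 9365 genes with mRNA reads in all 9 libraries. Low CPA18 mRNA values chose the 3 genes and enter the ratio. That share and the median given below are thus only a description. Control and CPA1 overlapped in all 3 genes. As group means the occupancy went from 1.03 ± 0.181 to 5.71 ± 3.74 for Ucn3, from 0.399 ± 0.209 to 1.64 ± 0.691 for Nnat and from 0.783 ± 0.330 to 2.59 ± 1.22 for Dio1 (SD, n = 3). The fitted log2 differences from control were 2.18 (SE 0.67), 2.07 (SE 0.30) and 1.64 (SE 0.56), beside a median of 0.02 over all 10013 genes fitted.

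At 1 h the change in occupancy was tested in 1 model over both assays. Nnat had a log2 difference of 0.91 (SE 0.29, interval 0.34 to 1.48) with an unadjusted p of 0.00258 and an adjusted p of 0.369 in the edgeR fit. For Ucn3 the difference was 0.34 (SE 0.45, adjusted p = 0.967) and for Dio1 0.22 (SE 0.40, adjusted p = 0.976). The median over all genes fitted was 0.17. By experiment the log2 ratio to control was 0.78, 1.28 and 0.67 for Nnat and 0.74, 0.21 and 0.13 for Ucn3. For Dio1 it was 0.19, 0.62 and -0.07. In this comparison 0.0699% of genes were called, 7 in all, and 615 had an unadjusted p under 0.05.

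**Figure D3:**
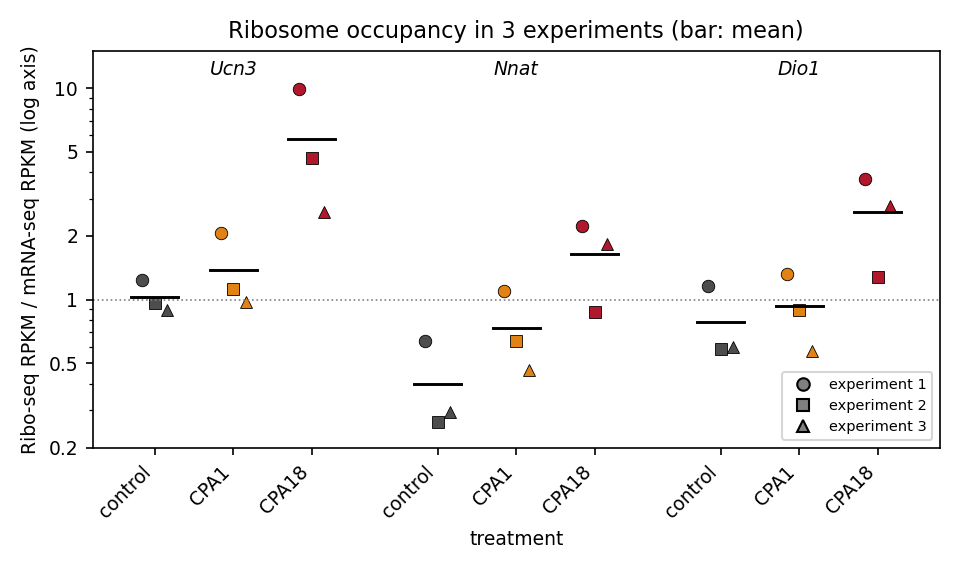
Ribosome occupancy of the 3 genes, the ratio of Ribo-seq to mRNA-seq RPKM on a log axis, by treatment. Points are the 3 experiments and bars their means, and the CPA18 points of each gene lie above its control points.

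The smaller fall in Ribo-seq than in mRNA-seq was common among genes with a steep mRNA loss. Among 10013 genes kept in both assays, 15 had an mRNA log2 fold change at or below that of Nnat, among them Ucn3, Dio1 and Nnat itself. In 15 of these 15 the Ribo-seq value was below 0. In 12 of the 15, again with Ucn3, Dio1 and Nnat among them, the Ribo-seq fall was the smaller one. Medians over the 15 were -3.28 in mRNA-seq and -1.98 in Ribo-seq. The same mRNA values selected these genes, so the count and the gap between the medians are described and not tested.

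**Figure D4:**
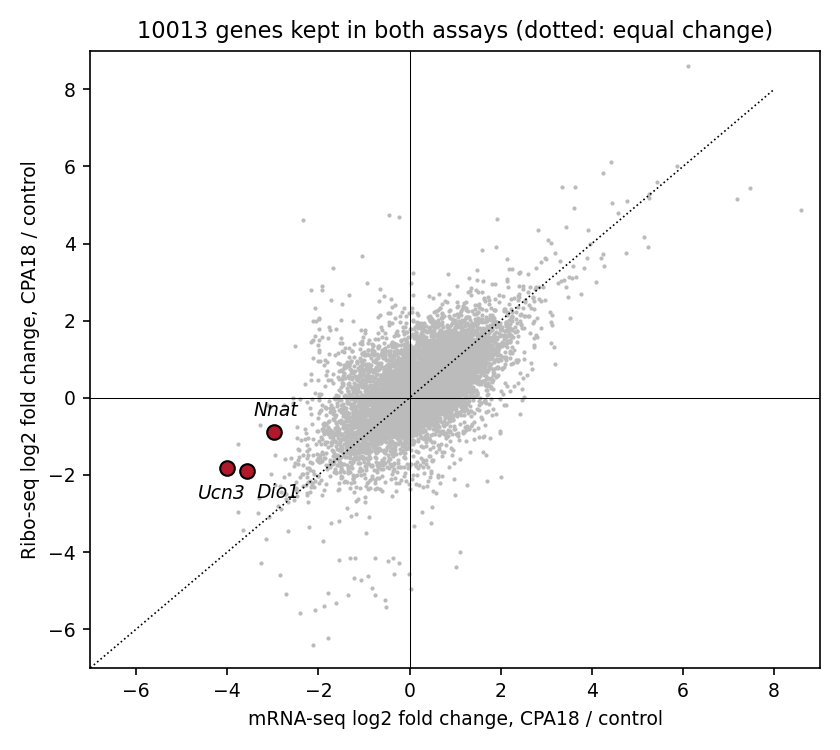
Log2 fold change of CPA18 against control in mRNA-seq (x axis) and Ribo-seq (y axis) for the 10013 genes kept in both assays, with Ucn3, Nnat and Dio1 marked. On the dotted line both changes are equal, and the 3 genes lie above it at the far left.

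Among 5712 genes with a mean control level of at least 5 RPKM, Ucn3 had the steepest mRNA fall, Dio1 was at rank 4 and Nnat at rank 10. This fall chose the 3 genes, so their ranks are described and not tested. Between them stood Slitrk6, a neuronal adhesion protein gene (-3.76, SE 0.42), Vsnl1, which encodes a calcium sensor (-3.66, SE 0.59), Zfp825 (-3.44, SE 0.79), Slc2a2 (-3.32, SE 0.42), Cib3 (-3.28, SE 0.85), the trefoil factor gene Tff3 (-3.11, SE 0.82) and Miox, which encodes an inositol-degrading enzyme (-3.07, SE 0.71). With an SE of 0.26 at 13374 control reads, Nnat was the most precisely measured of the 10. Slitrk6, Vsnl1 and Slc2a2 had Ribo-seq values of -2.96, -3.43 and -2.99, each lower than those of Ucn3, Nnat and Dio1, and Cib3 one of -0.70 (SE 1.20), higher than theirs. The Vsnl1 value rests on 3 CPA18 reads against 112, or 8.21% of control with a counting interval of 1.67 to 24.6%. Of the 97 control mRNA-seq reads of Zfp825, 92 came from experiment 2. Zfp825, Tff3 and Miox were under the Ribo-seq filter.

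**Figure D5:**
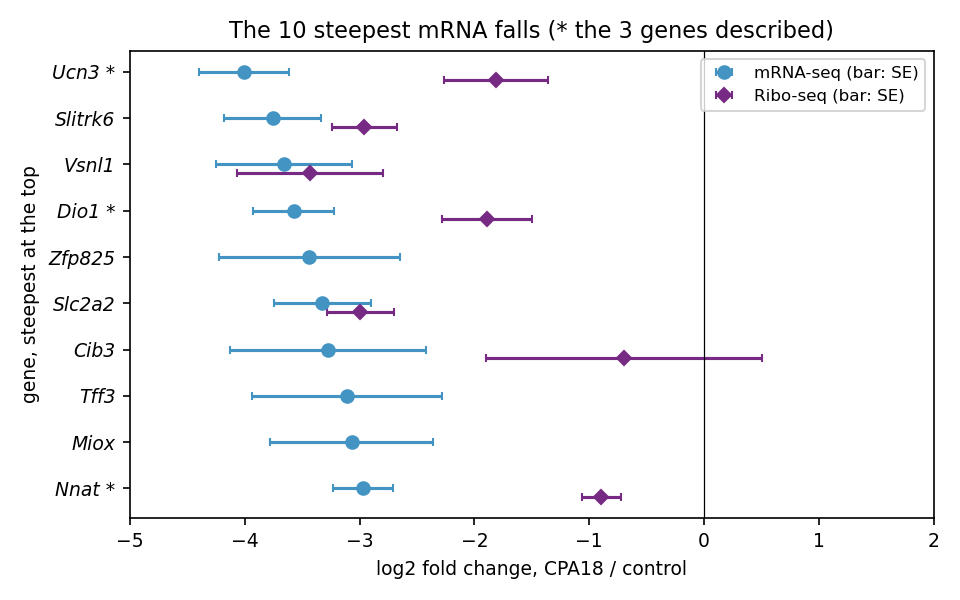
The 10 steepest mRNA-seq falls from control to CPA18 among genes with a mean control level of at least 5 RPKM, as log2 fold changes with their SE, and the Ribo-seq change of the same gene where it passed the filter. Asterisks mark Ucn3, Nnat and Dio1, which were chosen by this mRNA-seq fall. Their Ribo-seq points lie to the right of those of Slitrk6, Vsnl1 and Slc2a2.

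The genes whose mRNA pattern was most like theirs were found by Pearson's r of log2(RPKM + 0.5) over the 9 mRNA-seq libraries among 5790 genes, which share depth and treatment and give no independent points. For Ucn3 they were Tmsb4x (0.983), Ddc (0.977) and Pdx1 (0.975), with r of 0.722, 0.923 and 0.863 over the 9 Ribo-seq libraries. For Nnat they were Scgn (0.987, and 0.891 in Ribo-seq), Dio1 (0.985, and 0.919) and Gm572 (0.976, and 0.837). For Dio1 they were Scgn (0.992, and 0.901), Ang (0.990, and 0.805) and Hadh (0.989, and 0.927). Scgn, which encodes the calcium-binding protein secretagogin, was thus nearest to both Nnat and Dio1. Dio1 and Nnat came at rank 4 and rank 5 in the order for Ucn3. In turn Ucn3 came at rank 12 for Nnat and rank 16 for Dio1, and Nnat at rank 6 for Dio1. The mRNA values that chose the 3 genes enter these correlations, so their closeness to each other was not tested.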

How the data were processed

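The data were 9 mRNA-seq and 9 Ribo-seq libraries of MIN6 cells. Per the labels and the study's methods, sequencing reads of 15 to 40 bases were kept and mapped to mouse RefSeq transcripts, and the submitters' processing notes name Bowtie2 and GRCm38. The division of reads shared by several transcripts is not given in the sources used here. The authors deposited counts per transcript, not normalized, and RPKM computed from them, in which every library is scaled by its own total. RPKM recomputed from the counts and totals differed by at most 0.00111 on the log2 scale. Of 30741 transcripts, 30232 matched a RefSeq gene symbol with version and 478 without, 31 did not match, and both units were summed to 17207 genes.

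The members and the gene lists were chosen with earlier results of these data known, so no list is independent evidence. The main test was edgeR 4.0.16 (quasi-likelihood, R 4.3.3) on counts, in which libraries were scaled by their total and the experiment entered as a block, for genes with at least 18 reads over the 9 libraries of an assay (12300 in mRNA-seq, 10107 in Ribo-seq, 10013 in both). Benjamini-Hochberg adjustment ran over all of these genes, with 0.05 as the threshold. SE is the log2 fold change divided by the square root of F, and 95% intervals span 1.96 SE. For occupancy, both assays entered 1 fit and their difference in treatment effect was tested. The block comes from the replicate number, which the labels give as a batch number. Same-numbered libraries deviated together in mRNA-seq (mean r of 0.490, 9 of 9 pairs over 0.1) and less so in Ribo-seq (mean r of 0.0989, 2 of 9 pairs). The labels do not say whether the cultures were otherwise separate, so p-values measure the spread between these libraries. On simulated counts 200 genes were changed by 2 on the log2 scale. The fit of CPA18 against control recovered 72% of them in mRNA-seq, with 5 false calls among 12300 genes. In Ribo-seq it recovered 70%, with 6 false calls among 10107. The simulated counts carried no difference between experiments, so they do not test the calls that depend on the block.

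Named were the 3 members, every filtered gene of the CRF, somatostatin, signal peptidase and SERCA lists, and from other lists up to 4 genes with the largest called Ribo-seq change and up to 2 called in the other direction. Also named were the 10 steepest mRNA falls and the 3 genes nearest each member. Alternatives were no block, DESeq2 1.42.0, TMM, totals without Ins1, Ins2 and Lars2, other filters, limma 3.58.1 on log2 RPKM, 1 transcript per gene, no experiment 2 controls, and each replicate left out. Counting intervals used scipy 1.17.1, and figures matplotlib 3.10.9.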

Additional observations from a re-analysis of the deposited data

How the results depend on the processing

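Of 374 alternative values for Ucn3, Nnat and Dio1, 342 kept their direction and their side of the threshold or moved by less than the replicate spread. All values below are log2 fold changes unless they count genes, and the cause of the changes was not tested. The replicate numbers pair the libraries of an experiment, and without this replicate block the 1 h Ribo-seq value of Nnat was 0.54 and no longer called. The genes called without the block were 0 for mRNA-seq CPA1 (21 with it), 126 for mRNA-seq CPA18 (2757), 220 for Ribo-seq CPA1 (442) and 0 for occupancy CPA1 (7). Of the lists in mRNA-seq at 18 h, 0 CRF family, 0 somatostatin, 2 maturity, 0 immaturity, 2 imprinted, 0 signal peptidase, 0 SERCA, 0 thyroid and 0 selenoprotein genes were then called. The block changed no other call on the 3 genes.

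The Nnat 1 h Ribo-seq value was also no longer called with TMM (0.47), with limma at pseudocounts of 0.5, 0.1 and 1 (0.54 each), with 1 transcript per gene (0.53), without the experiment 2 controls (0.60), or without replicate 1 (0.50) or 2 (0.51). Without replicate 3 it was 0.61 and called, so that the range with a replicate left out was 0.50 to 0.61. Dio1 at 1 h in mRNA-seq turned from -0.06 to 0.0019 with DESeq2, 0.078 with TMM, 0.11 with totals without Ins1, Ins2 and Lars2, 0.076 without the experiment 2 controls, and -0.34 to 0.25 with a replicate left out. Ucn3 at 1 h in Ribo-seq turned from -0.0034 to 0.18 without those controls, and ranged from -0.12 to 0.21 with a replicate left out. The Ucn3 Ribo-seq fall at 18 h ranged from -2.23 to -1.38 against control and from -2.11 to -1.27 against CPA1 with a replicate left out. The mRNA fall of Ucn3 against control was -4.43 with DESeq2, -4.32 with TMM, -4.31 with the reduced totals, -3.68 and -3.43 with limma at pseudocounts of 0.5 and 1, and -4.06 to -3.81 when a replicate or the experiment 2 controls were left out. Against CPA1 it was -4.17, -4.14 and -4.18 with the first 3 settings and -3.08 with limma at a pseudocount of 1. For Dio1 against control it was -3.97, -3.88 and -3.87 with those 3 settings, and -3.85 to -3.37 when a replicate or those controls were left out.

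Counts of genes called moved further. For mRNA-seq CPA1 they were 35 with DESeq2, 65 with transcripts read in all libraries, 166 with no filter, 11, 9 and 11 with limma at pseudocounts of 0.5, 0.1 and 1, and 0 to 425 with a replicate left out. For mRNA-seq CPA18 they were 1786 with limma at 0.1, 1457 without the experiment 2 controls and 1371 to 1673 with a replicate left out. For Ribo-seq CPA1 they were 114, 86 and 128 with limma, 248 without those controls and 229 to 343 with a replicate left out. For Ribo-seq CPA18 they were 1121 with DESeq2, 1544 and 1326 with limma at 0.5 and 0.1, and 1411 to 1653 with a replicate left out. For Ribo-seq CPA18 against CPA1 they were 1013 with DESeq2 and 1139 to 1614 when a replicate or those controls were left out. For occupancy CPA1 they were 38 with DESeq2, 19 with TMM, 27 with the reduced totals, 38 with no filter, 0, 0 and 0 with limma, 3 without those controls and 4 to 78 with a replicate left out. With TMM 1 CRF family, 1 signal peptidase and 2 selenocysteine insertion genes were called in Ribo-seq. The CPA18 Ribo-seq libraries held 2 to 12 reads of Ucn3 or Dio1 each, which limits the precision of both genes more than that of Nnat with 77 to 279.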
